A study of Mus musculus with 10 samples.

Results

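Among 77076 chromatin regions measured by ATAC-seq in mouse regulatory T (Treg) cells, 752 were opened in effector Treg (eTreg) cells relative to central Treg (cTreg) cells in the wild type (WT) and kept most of that opening in eTreg cells deficient in Fntb (FntbKO). ATAC-seq uses a transposase to insert sequencing adapters into accessible DNA, so that more reads at a region mean more open chromatin. The regions were selected on CPM, the count at a region scaled to a common library total. A region was an opening where the WT eTreg mean was at least 3 CPM and at least 2 times the WT cTreg mean, with no overlap between the WT groups, and 1342 regions met this. It was kept where the FntbKO eTreg mean reached the geometric mean of the WT eTreg and WT cTreg means, that is, the middle of the WT rise on a log scale. The other 590 openings are called weak. Values of FntbKO eTreg, WT eTreg and WT cTreg therefore chose the regions and are given as a description, and only the FntbKO cTreg libraries had no part in the choice.

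All libraries came from Treg cells of mixed bone marrow chimeras, sorted from spleen and lymph nodes; such mice have blood cells from more than one marrow donor. There were 2 libraries of FntbKO eTreg cells, 2 of FntbKO cTreg cells, 3 of WT eTreg cells and 3 of WT cTreg cells. The way in which Fntb was deleted, the marrow donors, the age of the mice, the sort gates and the number of mice behind a library are not given in the sources used here, so p-values measure the spread between these libraries, which may be technical in part. Library totals ran between 5058328 and 15328775 counts. Of 13 regions assigned to Fntb, 2 inside the gene separated the genotypes in every library: the region at chr12:76837192-76837915 had 11.5 and 7.5 CPM in FntbKO eTreg and 12.9 and 11.2 CPM in FntbKO cTreg, against 29 to 30.9 CPM in WT eTreg and 29.9 to 36.4 CPM in WT cTreg. The strongest Foxp3 region, at the gene of the Treg lineage factor, had 26.5 to 35.3 CPM over all 10 libraries.

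Central Treg cells recirculate through lymphoid tissue, whereas effector Treg cells have met antigen, express suppressive and migratory molecules, and enter tissues. The product of Fntb is the β chain of farnesyltransferase, which adds a lipid anchor to lamin B and some other proteins and so holds them at membranes. Regions that open as T cells differentiate often lie far from gene starts and are bound by factors of the AP-1, STAT and nuclear receptor families.

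Most of the kept openings lay away from gene starts, and 21 of the 712 with a tabulated start on their chromosome overlapped a promoter window (250 bases before to 50 after a start). The sequences of 5 such windows are shown. Of these, 2 were picked for well known effector products (Gzmb and Ifng) and 2 others for a match to the AP-1 motif (Srxn1 and Gm29887). The Asns window was picked because its region had the FntbKO subsets apart. The sequences are the 250 bases before the start, from RefSeq on GRCm38.p6, read 5′ to 3′ on the strand of the gene. Gzmb (granzyme B, a cytotoxic protease) lies on the minus strand, with the window at chr14:56262335-56262584. Ifng (interferon γ) lies on the plus strand at chr10:118440796-118441045. Asns (asparagine synthetase) is on the minus strand at chr6:7693210-7693459. Srxn1 (sulfiredoxin, which repairs oxidised peroxiredoxins) is on the plus strand at chr2:152105274-152105523. Gm29887, a gene with a start inside Dock2, is on the plus strand at chr11:34506705-34506954. Capitals mark TGANTCA (the AP-1 site), TTCNNNGAA (the STAT site), TGATGNAA (a C/EBP-ATF type site) and TGACNNNGC (a small Maf or NRF2 type site) on either strand. The last 2 motifs and the windows of Ifng, Asns and Srxn1 were chosen after values were seen.
Gzmb: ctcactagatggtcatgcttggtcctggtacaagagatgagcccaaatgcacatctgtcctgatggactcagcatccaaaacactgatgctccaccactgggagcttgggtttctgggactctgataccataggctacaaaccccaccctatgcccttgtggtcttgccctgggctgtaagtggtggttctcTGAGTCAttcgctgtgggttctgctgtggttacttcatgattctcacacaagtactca
Ifng: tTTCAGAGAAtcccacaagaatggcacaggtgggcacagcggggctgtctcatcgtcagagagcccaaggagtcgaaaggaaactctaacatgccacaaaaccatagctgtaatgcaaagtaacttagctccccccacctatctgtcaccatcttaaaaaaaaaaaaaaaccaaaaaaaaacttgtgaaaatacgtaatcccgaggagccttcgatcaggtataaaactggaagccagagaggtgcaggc
Asns: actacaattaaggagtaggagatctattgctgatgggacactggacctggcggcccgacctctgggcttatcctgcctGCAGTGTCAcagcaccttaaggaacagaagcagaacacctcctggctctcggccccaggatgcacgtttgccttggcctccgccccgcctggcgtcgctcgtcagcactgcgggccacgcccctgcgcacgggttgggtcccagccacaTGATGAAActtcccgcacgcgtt
Srxn1: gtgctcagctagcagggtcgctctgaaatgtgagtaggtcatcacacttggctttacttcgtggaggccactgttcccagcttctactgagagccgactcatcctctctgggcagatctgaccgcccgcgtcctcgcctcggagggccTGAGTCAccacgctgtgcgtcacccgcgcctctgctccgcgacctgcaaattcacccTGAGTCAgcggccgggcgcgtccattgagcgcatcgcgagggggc
Gm29887: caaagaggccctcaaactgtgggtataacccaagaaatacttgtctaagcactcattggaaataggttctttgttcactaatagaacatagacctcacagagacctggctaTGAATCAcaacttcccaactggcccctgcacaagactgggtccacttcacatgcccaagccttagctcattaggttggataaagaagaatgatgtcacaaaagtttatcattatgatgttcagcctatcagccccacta

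Matches to the AP-1 motif TGANTCA stood in 6 of the 26 promoter windows that kept openings overlapped (23.1%), in 4 of the 19 at weak openings (21.1%), in 4.91% of the 12882 windows overlapped by any region and in 7.81% of all 32851 windows. Chosen without the first WT cTreg library the set had a share of 7.69%, and without the third WT eTreg library one of 11.1%. Gzmb had 1 TGAGTCA, Srxn1 had a pair, and the Gm29887 start had TGAATCA, the reverse complement of TGATTCA. The STAT motif TTCNNNGAA was in 7 of the 26 windows (26.9%), in 1 of the 19 at weak openings (5.26%) and in 8.30% of all windows, and the Ifng window held it. Asns, a target of the amino acid response, had TGATGNAA and TGACNNNGC, which are in 3.97% and 12.4% of all windows. These are matches of letters in few windows, searched on both strands, and TGANTCA takes in both TGAGTCA and TGATTCA. The 26 windows lay at 21 kept openings, and windows of neighbouring starts can overlap, so that a single site counts more than once. The same STAT match stood in both Serpina3f windows, for example. The distal openings, which make up most of the set, were not searched.

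The kept openings were open in eTreg and low in cTreg libraries of both genotypes. Median CPM over the 752 regions was 4.55 and 5.33 in the FntbKO eTreg libraries and 1.61 and 2.61 in the FntbKO cTreg libraries, against 5.46, 5.29 and 6.05 in WT eTreg and 1.79, 2.46 and 2.35 in WT cTreg. All eTreg medians thus stood above all cTreg medians, and the FntbKO cTreg libraries, which the choice did not use, lay at the level of WT cTreg. The FntbKO eTreg mean was at least 2 times the FntbKO cTreg mean in 526 regions (69.9%), 1.5 to 2 times in 145, 1 to 1.5 times in 63 and below it in 18. In such sorted populations, more cells with an open region and a more open region per cell cannot be told apart. Both FntbKO cTreg libraries were below all 3 WT eTreg libraries in 679 regions (90.3%). Depth sets the precision of single regions, with median counts of 23 and 54 in the FntbKO eTreg libraries and 12 and 40 in the FntbKO cTreg libraries.

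**Figure D1:**
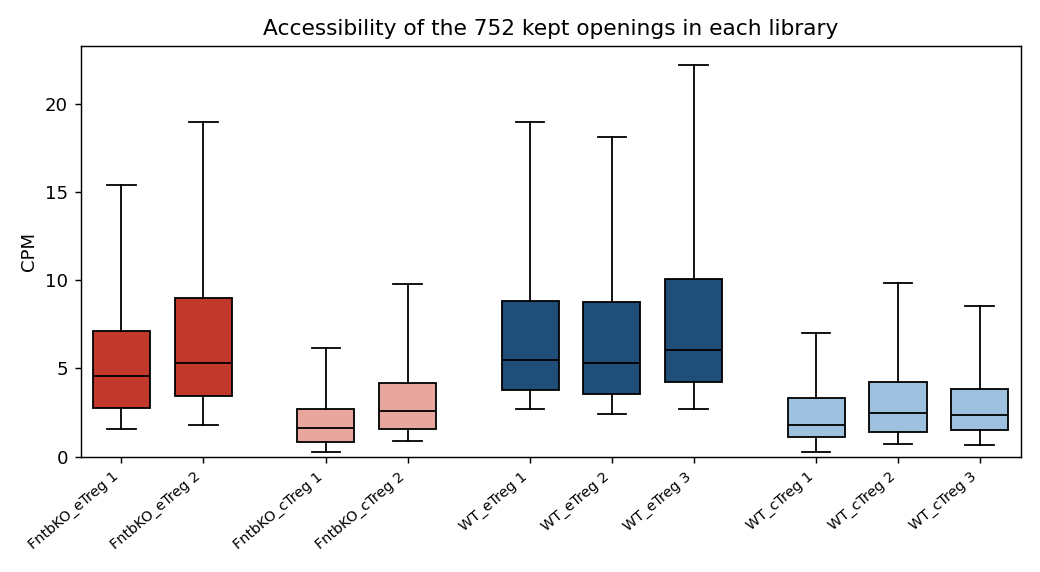
CPM of the 752 kept openings in each of the 10 libraries (boxes, quartiles with the median as a line; whiskers, 5th to 95th percentile). The eTreg boxes of both genotypes stand above the cTreg boxes, and the first FntbKO cTreg library has the lowest median, 1.61 CPM.

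In FntbKO cells, eTreg exceeded cTreg by a median fitted log2 fold of 1.26 over the kept openings and 0.86 over the weak ones, against -0.0042 over all tested regions. The edgeR quasi-likelihood test called 136 of the 752 higher in FntbKO eTreg than in FntbKO cTreg (18.1%) and 0 lower at an adjusted p under 0.05, where 0.966% of all 76216 tested regions were called higher and 0.39% lower. Both FntbKO eTreg libraries lay above both FntbKO cTreg libraries in 632 kept openings (84.0%), in 356 weak ones (60.3%) and in 24.1% of all tested regions, while they lay below in 2 kept openings and in 24.6% of all. Because FntbKO eTreg was part of the choice, these shares describe the set. The count of calls rests on single libraries: it was 1 without the first FntbKO cTreg library, 1 without the second FntbKO eTreg library, 43 without the first FntbKO eTreg library, 208 without the second WT cTreg library and 226 without the second FntbKO cTreg library. In each of these fits the share called over all tested regions fell or rose along with this count. The shifts were thus not particular to the kept openings. With the second WT cTreg library left out, 2.37% of all tested regions were called in either direction, against 1.36% with all 10 libraries. The 2 FntbKO cTreg libraries themselves differed, the first being below the second in 638 regions (84.8%). The FntbKO eTreg mean was at least 2 times the first in 616 regions and at least 2 times the second in 357.

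The same contrast in WT, which the choice used, had a median log2 fold of 1.33, with 428 of the 752 called higher (56.9%) where 1.83% of all tested regions were, and nothing is read from it. That count was 155 without the first WT cTreg library, 124 without the third, 197 without the first WT eTreg library and 154 without the third. Over all tested regions 1.02%, 0.564%, 1.08% and 0.716% were called in either direction in these fits, against 3.44% with all libraries. As the choice fixes only a lower bound for FntbKO eTreg, the share of the WT rise that it kept varied between regions, with a median of 76.1%, quartiles of 63.3% and 95.3% and a range of 50.0% to 205% on the log scale (751 regions with WT cTreg above 0). FntbKO eTreg reached or passed the WT eTreg mean in 158 regions (21.0%). In 463 regions (61.6%) each FntbKO eTreg library alone was at or above the threshold.

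**Figure D2:**
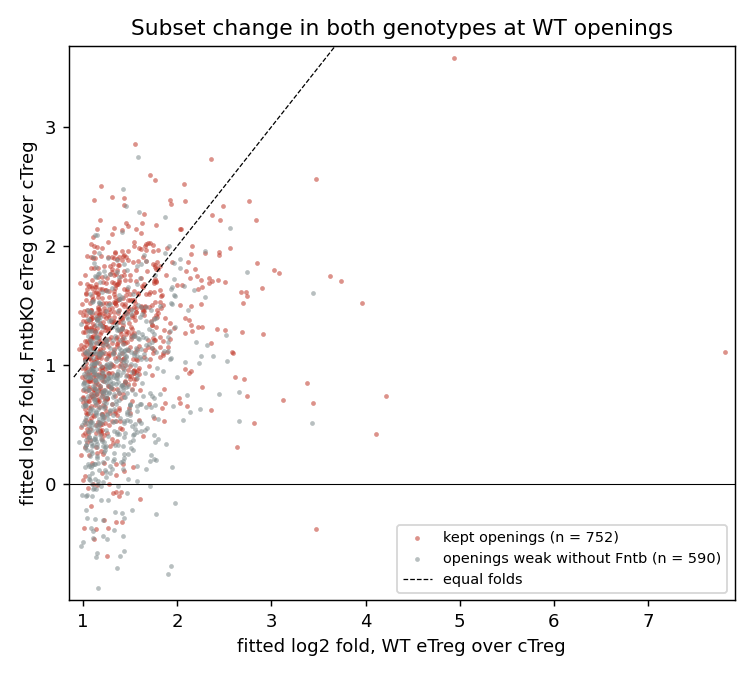
Fitted log2 fold of eTreg over cTreg in FntbKO (vertical axis) and in WT (horizontal axis) for the 752 kept and 590 weak openings; the dashed line marks equal folds. Kept openings spread around the dashed line with a median FntbKO fold of 1.26, and weak openings lie lower with a median of 0.86. Of the kept openings 2 had at most 3 WT cTreg counts in all, and their fitted WT folds give no size.

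Genotypes were also compared within each subset. In cTreg cells the median log2 fold of FntbKO over WT was -0.03 over the kept openings and -0.51 over the weak ones. WT cTreg was part of the choice of openings and of the threshold between kept and weak, so cTreg comparisons between these sets are a description. The FntbKO cTreg mean lay below the WT cTreg mean in 428 kept openings (56.9%) and in 506 weak ones (85.8%), and at weak openings the median CPM was 1.07 and 2.09 in the FntbKO cTreg libraries, against 1.93, 2.63 and 2.35 in WT cTreg. The second FntbKO cTreg library thus lay within the range of the WT cTreg libraries there, and the first below it. The edgeR test called 1 kept opening higher in FntbKO cTreg, where 0.19% of all tested regions were called, and 0 lower, where 0.378% were. That call was not stable: without the second FntbKO cTreg library 11 kept openings were called and 0 of them were higher, so that all 11 were lower, where 0.942% of all tested regions were called in either direction. Without the third WT cTreg library the 1 call was a lower one, and without each of 6 other libraries there were 0 calls. In eTreg cells, where the choice used both groups, the median log2 fold was -0.30, and 0 of the 752 were called higher or lower, beside 0.181% and 0.169% of all tested regions. A test of whether the subset change differed between genotypes called 0 of all tested regions in either direction with edgeR (0.0%) and 0 with DESeq2; at an unadjusted p under 0.05 it took 34 kept openings (4.52%) and 3099 of all tested regions.

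Each chosen library was checked at openings chosen without it. Leaving out a WT eTreg library and choosing again, that library was at least 2 times the WT cTreg mean in 57.9%, 52.2% and 70.5% of the regions chosen, against 2.92%, 3.10% and 4.17% of regions with a WT eTreg mean of at least 3 CPM. A WT cTreg library left out was at most the WT eTreg mean divided by 2 in 62.2%, 29.3% and 50.5% of them, against 8.03%, 3.94% and 4.73%. The second WT cTreg library had the lowest share, and without it the same criteria took 1479 regions. Left-out FntbKO eTreg libraries reached the threshold in 53.3% and 79.1% of the regions that the other one kept, against 25.8% and 53.6% of the openings that it did not keep.

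Cytokine genes of helper T cells held several kept openings that were called in FntbKO. Of 31 genes on a list of helper T cell cytokines and factors, 9 had 11 kept openings. Among these genes were Ifng, Il17a, Il17f, Il23r, Stat3, Stat4 and Tbx21. Weak openings were at 2 genes, Il10 and Il2. The 11 kept openings lay among 315 tested regions of the list, where 752 of all 77076 regions were kept. Over the 315 tested regions of the list, 13 were called higher and 2 lower in FntbKO eTreg than in FntbKO cTreg, beside 0.966% higher and 0.39% lower of all tested regions, and the median log2 fold was 0.05, beside -0.0042 over all. The region chr1:20743785-20744360, 9289 bp from Il17a, which encodes interleukin 17A, had 17.8 and 11.8 CPM in FntbKO eTreg and 2.95 and 4.04 CPM in FntbKO cTreg libraries, against 28.4, 26.8 and 19.5 CPM in WT eTreg and 8.54, 10.2 and 4.49 CPM in WT cTreg libraries. The FntbKO eTreg and cTreg libraries did not overlap, and both FntbKO eTreg libraries were below every WT eTreg library. The FntbKO eTreg mean was 14.8 CPM against a threshold of 13.9 CPM, and the second FntbKO eTreg library lay below that threshold. In cTreg the mean was 3.50 CPM in FntbKO, against 7.74 CPM in WT. The log2 fold of FntbKO eTreg over FntbKO cTreg at this region was 2.01 ± 0.32 (SE; edgeR adjusted p = 0.00419). That call was lost without the first FntbKO cTreg library. A neighbouring region at chr1:20759635-20760200, outside Il17f, its paralog, had 10.7 and 14.9 CPM in the FntbKO eTreg libraries, 1.88 and 4.44 CPM in the FntbKO cTreg libraries, 7.59, 9.77 and 7.74 CPM in the WT eTreg libraries and 1.93, 3.86 and 4.17 CPM in the WT cTreg libraries. Here both FntbKO eTreg libraries were above every WT eTreg library, and the log2 fold was 1.95 ± 0.35 (SE; edgeR adjusted p = 0.0075).

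Kept openings at Il23r and Stat4 were called as well, and those at Tbx21 were not. Il23r encodes a subunit of the interleukin 23 receptor, and its region inside the gene had 6.72 and 2.96 CPM in FntbKO eTreg and 0.805 and 1.44 CPM in FntbKO cTreg libraries, against 5.34, 8.14 and 4.71 CPM in WT eTreg and 1.79, 2.63 and 1.07 CPM in WT cTreg libraries. The subsets were apart in FntbKO, with a log2 fold of 1.96 ± 0.51 (SE; edgeR adjusted p = 0.0475). Stat4, which signals for interleukin 12, had a log2 fold of 1.37 ± 0.35 (SE; edgeR adjusted p = 0.0458). Tbx21, the gene of T-bet, had 2 kept openings with folds of 1.59 ± 0.43 (SE; edgeR adjusted p = 0.0554) and 1.46 ± 0.47 (SE; edgeR adjusted p = 0.11). Among the 10 fits that left out 1 library, the Il23r region was called in 2 and the Stat4 region in 4. The first Tbx21 region was called in 3, so the calls do not set Il23r and Stat4 apart from it.

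Ifng had a distal opening and another over its start, and cTreg values of both genotypes were lower at the distal region. The distal region at chr10:118435226-118435923, 5123 bp from the start, had 9.09 and 9.88 CPM in FntbKO eTreg and 2.95 and 3.65 CPM in FntbKO cTreg libraries, against 7.36, 14.7 and 11.1 CPM in WT eTreg and 1.65, 3.51 and 4.71 CPM in WT cTreg libraries, and its log2 fold in FntbKO was 1.5 ± 0.36 (SE; edgeR adjusted p = 0.0367). The region over the Ifng start, whose sequence is printed above, had 7.71 and 14.7 CPM in the FntbKO eTreg libraries, 7.52 and 9.33 CPM in the FntbKO cTreg libraries, 12.3, 16.1 and 19.3 CPM in the WT eTreg libraries and 4.41, 8.43 and 8.13 CPM in the WT cTreg libraries. Its first FntbKO eTreg library fell among the FntbKO cTreg libraries, so the subsets overlapped in FntbKO, and the log2 fold was 0.44 ± 0.30 (SE; edgeR adjusted p = 0.525). Both regions were kept by the same rule, and the difference between them was not tested. At the start the FntbKO eTreg mean was 11.2 CPM against a threshold of 10.5 CPM, and the first FntbKO eTreg library lay below that threshold.

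The interleukin 1 receptor family had kept openings at 3 of 7 genes and weak openings at 0. It had 4 kept openings among 55 tested regions, where 752 of all 77076 regions were kept. Of its 55 tested regions 4 were called higher and 0 lower in FntbKO eTreg (0.966% and 0.39% of all tested regions), with a median log2 fold of 0.37. Il1rl1 encodes ST2, the receptor for interleukin 33, which tissue Treg cells use, and had 2 kept openings. The region chr1:40393223-40393868, 10996 bp from Il1rl1, had 12.3 and 16.5 CPM in FntbKO eTreg and 1.88 and 4.31 CPM in FntbKO cTreg libraries, against 12.7, 22.2 and 21.4 CPM in WT eTreg and 3.99, 11.2 and 6.42 CPM in WT cTreg libraries. The FntbKO subsets did not overlap, and the log2 fold in FntbKO was 2.13 ± 0.40 (SE; edgeR adjusted p = 0.0158). That call was lost without the first FntbKO cTreg library or either FntbKO eTreg library. The other, with 2.37 and 3.36 CPM in FntbKO eTreg and 1.61 and 1.89 CPM in FntbKO cTreg, had a fold of 0.72 ± 0.51 (SE; edgeR adjusted p = 0.545). Il18r1, the interleukin 18 receptor, had 5.54 and 6.12 CPM in the FntbKO eTreg libraries, 1.88 and 1.83 CPM in the FntbKO cTreg libraries, 4.15, 4.48 and 6.56 CPM in the WT eTreg libraries and 1.65, 2.99 and 2.35 CPM in the WT cTreg libraries, with a fold of 1.66 ± 0.41 (SE; edgeR adjusted p = 0.0395). The opening at Il1rap, the shared co-receptor, had 2.77 and 1.58 CPM in FntbKO eTreg and 2.01 and 2.41 CPM in FntbKO cTreg, which overlapped, and a fold of -0.10 ± 0.54 (SE; edgeR adjusted p = 0.96).

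Effector Treg genes were split between kept and weak openings. Of 37 measured genes on the effector list, 9 had 12 kept openings (Ccr2, Gzmb, Icos, Il1rl1, Nfil3, Prdm1, Rora, Tbx21 and Tigit). Weak openings numbered 15, at 10 genes (Ccr2, Cxcr3, Havcr2, Il10, Klrg1, Maf, Nt5e, Pdcd1, Prdm1 and Tigit), and 3 genes had both. The 12 kept openings lay among 418 tested regions of the list, where 752 of all 77076 regions were kept. Over its 418 tested regions 19 were called higher and 0 lower in FntbKO (0.966% and 0.39% of all tested regions), with a median log2 fold of 0.17. Icos, a costimulatory receptor that eTreg cells depend on, had 12.3 and 16.4 CPM in FntbKO eTreg and 1.61 and 7.76 CPM in FntbKO cTreg libraries, against 15.4, 18.4 and 17.8 CPM in WT eTreg and 6.34, 8.25 and 5.99 CPM in WT cTreg libraries at a region 54033 bp away. The FntbKO subsets were apart, though their fold was 1.5 ± 0.39 (SE; edgeR adjusted p = 0.0601). Tigit, an inhibitory receptor, had 5.34 and 8.89 CPM in the FntbKO eTreg libraries and 1.88 and 2.48 CPM in the FntbKO cTreg libraries. In WT it had 11.4, 9.98 and 14.3 CPM in the eTreg libraries and 2.07, 7.02 and 3.42 CPM in the cTreg libraries. Its FntbKO fold was 1.70 ± 0.41 (SE; edgeR adjusted p = 0.0357). The Tigit region was barely kept, with a FntbKO eTreg mean of 7.11 CPM against a threshold of 7.04 CPM and the first library below it. Nfil3, a basic leucine zipper factor, had 5.93 and 4.64 CPM in FntbKO eTreg and 0.805 and 2.35 CPM in FntbKO cTreg libraries, against 4.03, 5.5 and 6.39 CPM in WT eTreg and 2.2, 2.46 and 2.46 CPM in WT cTreg libraries, and a fold of 1.61 ± 0.44 (SE; edgeR adjusted p = 0.0585).

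At the Gzmb start the FntbKO subsets overlapped, as they did at the Ifng start. The region over its start at chr14:56262068-56262571 had 9.49 and 14.6 CPM in the FntbKO eTreg libraries, 6.98 and 11.6 CPM in the FntbKO cTreg libraries, 15.3, 18.4 and 18.3 CPM in the WT eTreg libraries and 5.51, 10.5 and 8.99 CPM in the WT cTreg libraries. The second FntbKO cTreg library exceeded the first FntbKO eTreg library, and the FntbKO log2 fold was 0.37 ± 0.28 (SE; edgeR adjusted p = 0.571). The WT subsets could not overlap under the rule. The Gzmb start was barely kept, with a FntbKO eTreg mean of 12.05 CPM against a threshold of 12.03 CPM and the first library below it. Ccr2, a chemokine receptor, had 1.19 and 4.15 CPM in FntbKO eTreg and 0.403 and 0.913 CPM in FntbKO cTreg, a difference of few reads. Prdm1, the gene of Blimp-1, had 2 kept openings, with folds of 0.87 ± 0.44 (SE; edgeR adjusted p = 0.35) and 0.08 ± 0.48 (SE; edgeR adjusted p = 0.965).

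For comparison, Klrg1 and Il10, of the effector list, had 3 weak openings each. One Klrg1 region, beside a receptor that marks terminal effector cells, had 3.16 and 3.95 CPM in FntbKO eTreg and 0.805 and 3.33 CPM in FntbKO cTreg, against 11.6, 13.1 and 16.1 CPM in WT eTreg and 1.79, 4.21 and 4.49 CPM in WT cTreg. At the other 2 Klrg1 regions the FntbKO eTreg mean was 8.45 and 21.3 CPM, and the FntbKO cTreg mean was 4.20 and 10.4 CPM. In WT the means there were 16.5 and 34.6 CPM in eTreg and 8.26 and 16.8 CPM in cTreg. The fitted log2 folds of eTreg over cTreg there were 0.945 and 1.005 in FntbKO, against 1.04 and 1.08 in WT, and none passed. Both FntbKO subsets thus had lower means than WT at these 2 regions, while the folds were similar. At the first Klrg1 region the folds were 0.66 in FntbKO and 1.96 in WT. An Il10 region, at the gene of a suppressive cytokine, had 19.4 and 23.7 CPM in FntbKO eTreg and 3.09 and 9.65 CPM in FntbKO cTreg, against 38.8, 26 and 44.7 CPM in WT eTreg and 11.3, 17.6 and 11.1 CPM in WT cTreg. The FntbKO eTreg mean lay close to that of WT cTreg at 2 of the Klrg1 regions, and between the WT subsets at the third and at all 3 Il10 regions.

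**Figure D3:**
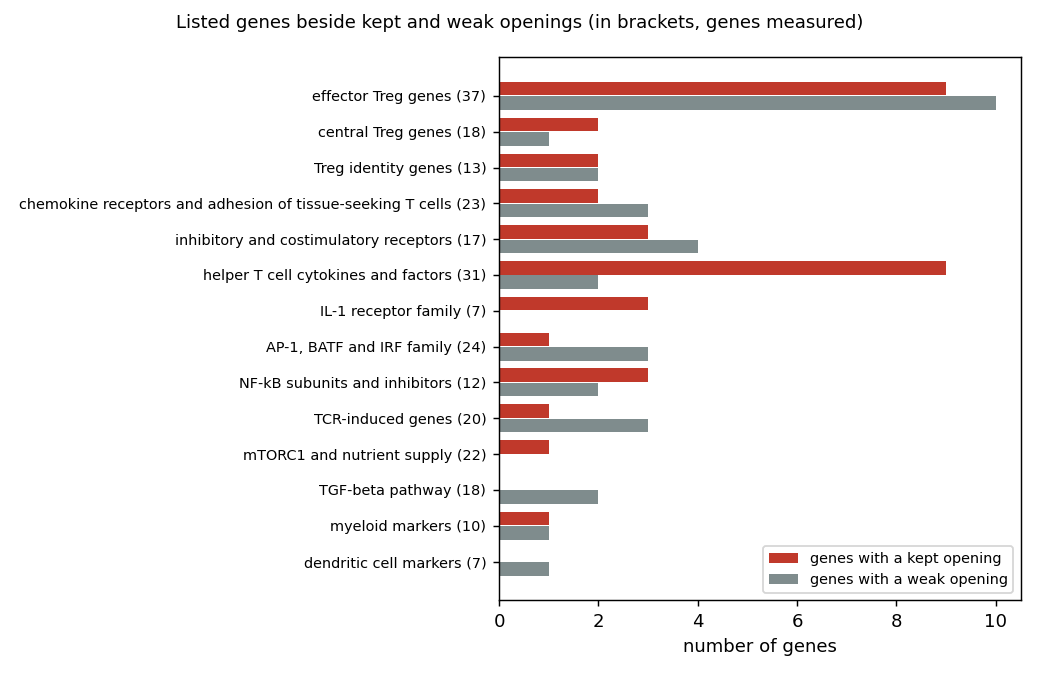
Number of genes of each list with at least 1 kept opening and with at least 1 weak opening (bars start at 0; the number of measured genes is in brackets). Helper T cell genes stand at 9 kept and 2 weak, and effector Treg genes at 9 kept and 10 weak; lists with neither are not drawn.

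Each of the other lists held at most 3 kept openings, where 0.976% of all regions were kept. Treg identity genes had 3 in 209 tested regions, of which 2 were at Ikzf2, the gene of Helios, with 5.54 and 4.64 CPM in FntbKO eTreg and 1.61 and 2.74 CPM in FntbKO cTreg at one of them. NF-kB genes had 3 in 121, at Nfkbiz, Rel and Tnfaip3, and the Tnfaip3 region, at the gene of the inhibitor A20, had 7.12 and 10.3 CPM in FntbKO eTreg and 1.88 and 5.15 CPM in FntbKO cTreg. AP-1, BATF and IRF genes had 1 in 294, at Nfil3, and mTORC1 and nutrient supply genes had 1 in 144, at Asns. TCR-induced genes had 1 in 226, at Nfatc1, a calcium-regulated factor, with 8.5 and 10.6 CPM in FntbKO eTreg and 1.74 and 4.44 CPM in FntbKO cTreg libraries, against 12.3, 14.8 and 11.8 CPM in WT eTreg and 3.86, 8.25 and 3.74 CPM in WT cTreg libraries and a fold of 1.54 ± 0.36 (SE; edgeR adjusted p = 0.0332). Central Treg genes had 2 in 515, at Ets1 and Foxp1, and chemokine receptors had 2 in 200, at Ccr2 and Ccr6. Inhibitory and costimulatory receptors had 3 in 200, at Cd226, Icos and Tigit. Prenylation genes had 0 in 75 and TGF-β genes 0 in 225. The marker lists had 0 in 20 for B cells, 44 for CD8 T and NK cells, 40 for dendritic cells, 14 for erythroid cells and 137 for naive CD4 T cells. At the share of all regions, few or no kept openings would fall in lists of these sizes, so nothing is read from the counts of 0. Myeloid markers had 1, at Mpo, with 2.77 and 4.15 CPM in FntbKO eTreg and 0.268 and 1.30 CPM in FntbKO cTreg. The summed level of 41 myeloid marker regions was 346 to 365 CPM in FntbKO eTreg, 280 to 314 CPM in FntbKO cTreg, 378 to 412 CPM in WT eTreg and 312 to 383 CPM in WT cTreg, and its part in the results was not tested. Csf1r, a defining gene of macrophages, had no region assigned.

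Among well covered kept openings, whose average log2-CPM reached that of the median tested region (2.42), and with FntbKO subsets apart, the largest FntbKO folds were at Gpr160, Coro2a, Il1rl1, Tm2d3, Gxylt1, Il17a, Gins1 and Nhlrc2, of which Tm2d3 and Nhlrc2 did not pass. Gpr160, an orphan receptor gene, had 12.7 and 14.7 CPM in FntbKO eTreg and 1.61 and 3.91 CPM in FntbKO cTreg libraries, against 9.49, 5.5 and 6.05 CPM in WT eTreg and 2.2, 3.51 and 3.64 CPM in WT cTreg libraries. It was higher in both FntbKO eTreg libraries than in any WT eTreg library, and its fold was 2.22 ± 0.36 (SE; edgeR adjusted p = 0.00414). Coro2a, of the actin-binding coronin family, had 9.09 and 13.4 CPM in the FntbKO eTreg libraries, 1.34 and 3.46 CPM in the FntbKO cTreg libraries, 10.8, 11.6 and 12.4 CPM in the WT eTreg libraries and 5.1, 7.2 and 3.85 CPM in the WT cTreg libraries. The FntbKO subsets did not overlap, with a fold of 2.14 ± 0.35 (SE; edgeR adjusted p = 0.00414). The Gins1 region, in a gene of the replication helicase, had a fold of 2.00 ± 0.32 (SE; edgeR adjusted p = 0.0048).

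Highest in level were regions at Npnt, Slc17a6, Arnt2 and Cables1. The Npnt region, near the gene of the matrix protein nephronectin, had 48.2 and 59.4 CPM in FntbKO eTreg and 13.2 and 25.1 CPM in FntbKO cTreg libraries, against 76.4, 67.5 and 83.1 CPM in WT eTreg and 25.6, 51.6 and 25.9 CPM in WT cTreg libraries. Its subsets were apart in FntbKO, and the fold was 1.45 ± 0.40 (SE; edgeR adjusted p = 0.152), which did not pass. Slc17a6, 52784 bp from its region and better known as a glutamate transporter of neurons, had 39.9 and 49.4 CPM in the FntbKO eTreg libraries, 10.9 and 20.5 CPM in the FntbKO cTreg libraries, 68.1, 49.9 and 55.5 CPM in the WT eTreg libraries and 28, 32.3 and 25.2 CPM in the WT cTreg libraries. That fold of 1.47 ± 0.22 (SE; edgeR adjusted p = 0.00651) was lost only without the second FntbKO eTreg library among the 10 libraries left out in turn. Assigned genes are neighbours, and whether such a region acts on them was not measured.

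Asns and Srxn1, whose starts are printed above, separated the FntbKO subsets at the gene start. The WT subsets are apart at every kept opening by the choice. The Asns start had 18.2 and 15.3 CPM in FntbKO eTreg and 7.78 and 7.31 CPM in FntbKO cTreg libraries, against 15.4, 13.7 and 18 CPM in WT eTreg and 6.34, 8.78 and 7.06 CPM in WT cTreg libraries. The FntbKO subsets did not overlap, and FntbKO and WT values intermingled within each subset. The FntbKO fold was 1.14 ± 0.24 (SE; edgeR adjusted p = 0.017). Srxn1 had 7.91 and 12.2 CPM in the FntbKO eTreg libraries, 3.22 and 4.04 CPM in the FntbKO cTreg libraries, 17.9, 12.5 and 16.3 CPM in the WT eTreg libraries and 4.96, 8.43 and 3.64 CPM in the WT cTreg libraries, and a fold of 1.47 ± 0.33 (SE; edgeR adjusted p = 0.025). The Dock2 region next to the Gm29887 start, in the gene of a Rac activator that lymphocytes need to migrate, had a fold of 1.12 ± 0.21 (SE; edgeR adjusted p = 0.00839). Fam83g, also over a start, had 13 and 12.8 CPM in FntbKO eTreg and 9.26 and 8.68 CPM in FntbKO cTreg libraries, against 12.3, 17.1 and 18.3 CPM in WT eTreg and 7.71, 7.73 and 7.38 CPM in WT cTreg libraries and a fold of 0.53 ± 0.24 (SE; edgeR adjusted p = 0.289).

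**Figure D4:**
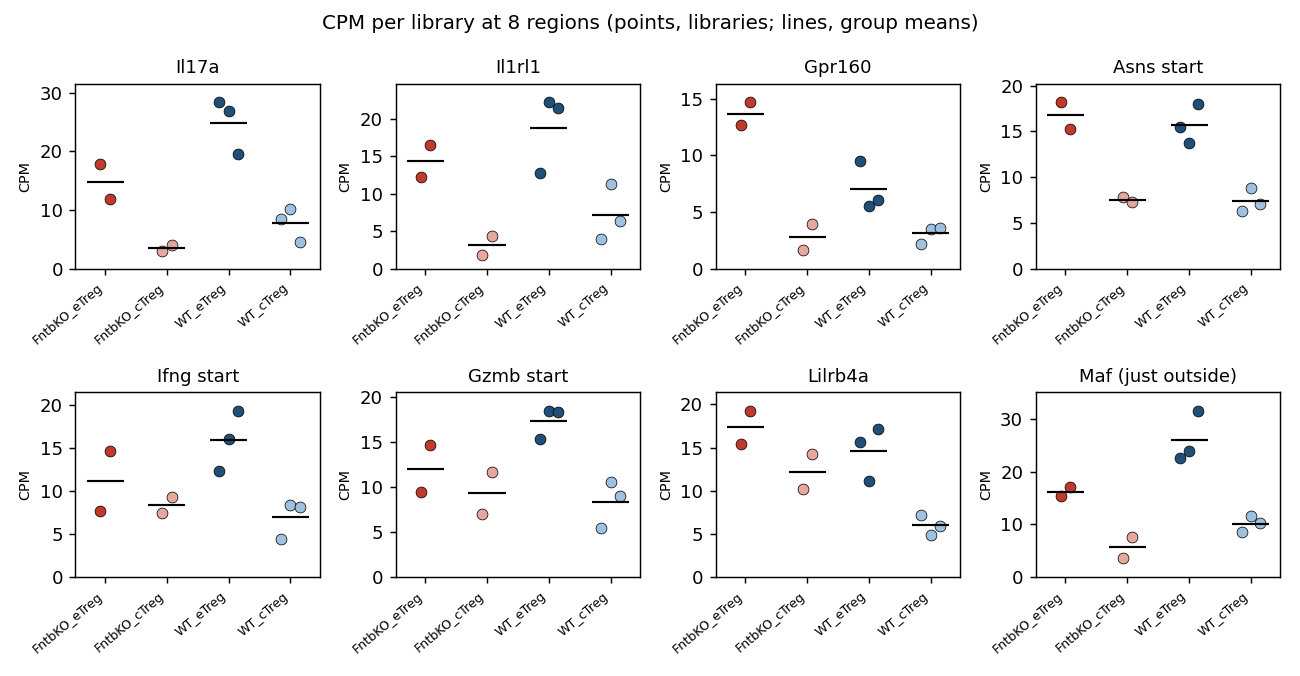
CPM in each library at 8 regions (points, libraries; lines, group means; each vertical axis starts at 0). Il17a, Il1rl1, Gpr160 and Asns separate FntbKO eTreg from FntbKO cTreg, whereas the Ifng and Gzmb starts overlap there, and Lilrb4a is raised in FntbKO cTreg; Maf is a weak opening just outside the threshold.

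Some kept openings were open in FntbKO cTreg too. In 66 of the 752 (8.78%) the FntbKO cTreg mean also reached the threshold that FntbKO eTreg had to reach, against 8 of 590 weak openings (1.36%). Median CPM of these 66 was 4.96 in FntbKO eTreg, 3.42 in FntbKO cTreg, 4.02 in WT eTreg and 1.70 in WT cTreg. Of the 66, 1 was called between the FntbKO subsets, beside 18.1% of all kept openings and 0.966% of all tested regions called higher. The FntbKO subsets were apart in 28 of the 66, and since a high FntbKO cTreg value picked them, their small subset difference follows from the choice. Lilrb4a, an inhibitory receptor of the immunoglobulin family, had 15.4 and 19.3 CPM in FntbKO eTreg and 10.2 and 14.3 CPM in FntbKO cTreg libraries, against 15.7, 11.2 and 17.2 CPM in WT eTreg and 7.16, 4.92 and 5.99 CPM in WT cTreg libraries. Every FntbKO cTreg library was above every WT cTreg library, and the log2 fold of FntbKO over WT in cTreg was 1.04 ± 0.24 (SE; edgeR adjusted p = 0.0428), the 1 call named above. It lies beside the near-identical copy Lilr4b, so reads may have been divided between them, and the call was lost in 8 of the 10 fits that left out 1 library. With Lilrb4a, the 4 largest cTreg genotype folds among well covered kept openings included Ccdc192, Apon and Ncald, at 1.17, 1.10 and 0.97, and none of these 3 passed. The smallest were at Mettl24 and Efhd2, at -1.19 and -1.10, and neither passed.

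The threshold itself is not a gap in the values. Just inside it were regions at Rax, with 2.77 and 1.78 CPM in FntbKO eTreg, and at Cask, with 2.37 and 5.92 CPM. Just outside were regions at Aebp2, with 8.3 and 8.59 CPM in FntbKO eTreg, and at Maf. The Maf region, near the gene of a factor that eTreg cells express, had 15.4 and 17 CPM in FntbKO eTreg and 3.76 and 7.57 CPM in FntbKO cTreg libraries, against 22.5, 23.9 and 31.4 CPM in WT eTreg and 8.54, 11.6 and 10.3 CPM in WT cTreg libraries. Its FntbKO fold of 1.45 ± 0.26 (SE; edgeR adjusted p = 0.00732) passed the test, as did those of 26 of the 590 weak openings in all (4.41%).

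Most genes had a single kept opening. Of the 752, 687 (91.4%) had a gene within 100 kb, 600 genes in all, and 530 of these had 1 kept opening, 56 had 2, 11 had 3 and 3 had 4. The 3 genes with 4 were Zeb2, Gpr55 and Ttc39c. Zeb2, a zinc finger transcription factor gene, had FntbKO folds between 1.10 and 1.31, of which none passed. Gpr55, a lipid receptor gene, had folds between 1.14 and 2.00, of which 1 passed (edgeR adjusted p = 0.0375). Ttc39c had folds between 1.18 and 1.72, of which 1 passed (edgeR adjusted p = 0.0292). Cables1 and Dusp16 were among the 11 genes with 3. Genes with a kept and a weak opening numbered 78, which is 13.0% of the 600 and 16.7% of the 466 with a weak one.

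Within 1 kb of a start, kept and weak openings were both less frequent than all regions, and no test was run on positions. Kept openings lay inside a gene span in 57.2% of cases, weak ones in 52.7% and all regions in 62.8%. A start lay within 1 kb in 5.90% of kept openings, 6.13% of weak ones and 18.5% of all regions, and beyond 50 kb in 27.7%, 27.3% and 20.8%. Between 1 and 10 kb the shares were 22.2% of kept openings, 22.2% of weak ones and 21.9% of all. Median distance to a start was 22474 bp for kept openings, 23521 bp for weak ones and 15210 bp for all. Another opening lay within 50 kb of 206 kept openings (27.4%), and the nearest was also kept in 137 of them (66.5%), where 56.0% of all openings were kept.

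**Figure D5:**
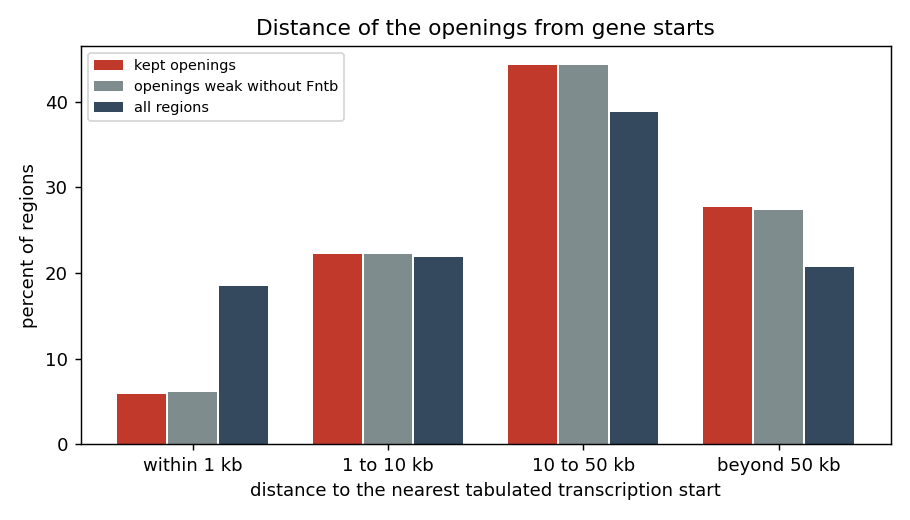
Percent of regions by distance to the nearest tabulated transcription start for kept openings, weak openings and all regions. The kept and weak bars are nearly level in each class, and both are lower than all regions within 1 kb (5.90% and 6.13%, against 18.5%).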

How the data were processed

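The authors deposited one table of raw read counts for 77076 regions in 10 libraries, without normalization. Per the submitters' processing notes, the tools were MACS2 2.1.1, Trimmomatic 0.36, Picard 2.9.4, bedtools and SAMtools, on mm10 (GRCm38); the aligner and the rule that merged regions across libraries are not given in the sources used here. Between 66.7% and 79.2% of counts in a library were even, so mates of a pair may have been counted separately, and halved counts were tried. The table does not state whether its coordinates start at 0 or 1.

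CPM values used library totals. Folds came from TMM-scaled counts in edgeR 4.0.16 (R 4.3.3, quasi-likelihood test, robust dispersions, filterByExpr, 1 mean per group, 6 residual degrees of freedom). The Benjamini-Hochberg adjusted p covers the 76216 tested regions; all 752 kept openings were tested, having passed the filter through the WT eTreg floor. The fit was tested on simulated data. DESeq2 1.42.0 was an alternative. Regions took the protein-coding RefSeq gene span (GRCm38.p6) they overlapped, or else the nearest within 100 kb; 94.3% of regions had one. Starts and sequences came from the RefSeq promoter table, which covers 712 of the kept openings.

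The members, lists and tests were chosen with earlier results of these data known. Regions were named by rule: the 8 largest FntbKO folds among openings at or above the median log2-CPM of 2.42, the 4 highest WT eTreg levels, the 4 largest and 2 smallest cTreg genotype folds, up to 3 per list, the 2 nearest the threshold on each side, the 5 genes with most openings (ties alphabetical), and 3 over promoter windows. Other regions of the listed genes and the Srxn1 start were added after their values were seen. Some regions of listed genes are not reported here.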

Additional observations from a re-analysis of the deposited data

Results flagged for a closer look

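At 2 of the 752 kept openings the subsets lay in opposite directions in the genotypes. In WT every eTreg library was above every cTreg library, as the choice required. Both FntbKO eTreg libraries were below both FntbKO cTreg libraries. The region near Grxcr2 had 3.95 and 1.98 CPM in FntbKO eTreg and 4.29 and 4.31 CPM in FntbKO cTreg, against 2.85, 3.46 and 3.36 CPM in WT eTreg and 0.827, 1.76 and 1.5 CPM in WT cTreg, with a log2 fold in FntbKO of -0.60. The region in Filip1 had 2.37 and 3.56 CPM in FntbKO eTreg and 4.03 and 3.59 CPM in FntbKO cTreg, against 2.85, 4.68 and 4.71 CPM in WT eTreg and 1.10, 1.76 and 1.71 CPM in WT cTreg, with a log2 fold of -0.32. The edgeR test of the difference between genotypes gave log2 values of -1.86 and -1.73, and neither passed the adjusted threshold (adjusted p = 0.99988 for both).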

How the results depend on the processing

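The count of kept openings called higher in FntbKO eTreg than in FntbKO cTreg was 136 and moved to 212 with counts halved and to 11 without the second WT cTreg and first FntbKO cTreg libraries together, and ranged between 1 and 226 when single libraries were left out. FntbKO over WT in cTreg gave 1 call, against 2 with DESeq2, 3 with halved counts and 0 without both of those libraries, and 0 to 11 with single libraries left out; the 1 call was higher in FntbKO, whereas the 11, without the second FntbKO cTreg library, were lower. Calls in WT, 428, ranged between 124 and 484 with single libraries left out, and were 493 with halved counts and 489 without both of those libraries. With halved counts, 2.72% of all tested regions were called between the FntbKO subsets, against 1.36% in the main fit. Between the WT subsets these shares were 4.67% and 3.44%. The median FntbKO log2 fold of 1.26 ranged between 0.99 and 1.71. Of 81 named kept openings, 21 were called in FntbKO, beside 18.1% of all kept openings and 0.966% of all tested regions called higher. Some were named for a large FntbKO fold, so their share of calls follows in part from the naming. Each of these calls was lost without at least 1 library.

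The numbers in the library names do not pair the samples by the labels. Deviations from the group mean correlated between same-numbered eTreg and cTreg libraries at 0.165, 0.0833 and 0.0317 in WT and 0.18 in FntbKO. Unlike-numbered eTreg and cTreg libraries of WT gave between -0.13 and 0.0439. With 2 FntbKO libraries per group the deviations mirror each other, so both same-numbered FntbKO pairs give 1 value, and unlike-numbered pairs give -0.18. With a replicate block the counts were 547 for eTreg over cTreg in WT and 259 in FntbKO. They were 5 for FntbKO over WT in cTreg and 1 in eTreg. Over all tested regions these 4 contrasts called 5.43%, 3.25%, 1.3% and 0.859% with the block.

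The set held 415 regions at a floor of 5 CPM, 195 at 3 times WT cTreg, 158 with FntbKO eTreg at the WT eTreg mean, 463 with both FntbKO eTreg libraries at the threshold, and 585 to 1479 without single libraries. The AP-1 share of 23.1% was 0% at 3 times, and 7.69% to 29.4% without single libraries. The lowest held-out share of 29.3% was 25.5% at 5 CPM and 46.4% at 3 times.

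Signs turned at regions not called: Rax to -0.017 with halved counts, -0.16 without both libraries, and between -0.25 and 0.43 without single libraries; the Prdm1 region to -0.013 without both, and between -0.16 and 0.23; and, without single libraries, the Ifng start between -0.13 and 0.78, Apon between -0.10 and 0.87, Rel between -0.55 and 1.44, Ncald between -0.091 and 0.67, Cask between -0.28 and 1.01 and Il1rap between -0.51 and 0.32. The cause of these shifts was not tested. No filter, DESeq2 size factors and total counts moved no count of calls by over 1.5 times.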

Other observations

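Kept openings were unevenly spread over chromosomes. They made up 1.65% of the 2421 regions on chromosome 18, where 40 were found, and 0.346% of the 2024 regions on the X chromosome, where 7 were found, beside 0.976% of all regions. Of the 590 weak openings, 19 lay on chromosome 18 and 9 on the X chromosome, so few weak openings were on X as well. Kept openings made up 67.8% of all openings on chromosome 18 and 43.8% on X, beside 56.0% in all. No test was run on these shares, which were noticed in the data.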
